A study of Mus musculus with 2 samples.

Results

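Cells that carried RNA of Prss56, Ecel1, Adamts18 or Rspo3 were examined within the astrocyte and stem cell range of the adult mouse subventricular zone, the layer along the lateral ventricle in which neural stem cells persist. A cell was a member when at most 10% of its UMIs came from mitochondrial genes and when the UMIs of Slc1a2, Aldoc, Ntsr2, Cldn10 and Gja1, summed, reached 40 per 10000. It also had to carry at least 2 UMIs of the 4 genes together and at most 1 UMI of Gfap and Thbs4 together. A UMI is a molecular tag that counts a captured transcript once. This gave 185 members among 3937 barcodes, 113 in library 1 and 72 in library 2. Members are compared with reference cells, which passed the same mitochondrial and astrocyte limits and had 0 UMIs of the 4 genes (545 and 414 cells). No limit on Gfap and Thbs4 was set for reference cells.

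The tissue came from male C57BL/6 mice with no genetic change or treatment named in the labels. The 2-month library was made from 4 mice and the 22-month library from 8, so each age was a single pool of animals and had no replicate. Viable cells were sorted for GLAST, the glutamate transporter of astrocytes and radial glia-like stem cells, and cells with O4 (oligodendrocyte lineage), Ter119 (erythroid) or CD45 (leukocyte) were gated out before droplet RNA sequencing. Barcodes end in a library number that no label ties to an age, so both libraries are shown side by side and neither is called young or old.

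Prss56 encodes a secreted trypsin-like serine protease known from Müller glia of the retina and from boundary cap cells of the peripheral nervous system. Ecel1 encodes a membrane metallopeptidase of the neprilysin family, and Adamts18 a secreted metalloprotease of the ADAMTS family. Rspo3 is an R-spondin, a secreted protein that binds Lgr receptors and removes the Znrf3 and Rnf43 ubiquitin ligases from the membrane, which leaves more Frizzled receptor available to Wnt proteins. Wnt signalling induces its own feedback antagonists, such as Notum, Nkd1, Axin2 and Sp5, and is known to act on stem cells of this niche. Quiescent stem cells and parenchymal astrocytes share many genes, and the 5 astrocyte genes of the rule do not separate them.

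The upstream sequences of genes in the rule are shown because 2 of these genes are neighbours and because genes of the Wnt pathway moved with them. Ecel1 lies on the minus strand of chromosome 1 (87147655 to 87156521) and Prss56 on the plus strand (87183313 to 87188405, GENCODE annotation of GRCm38). Their ends nearest to each other are their starts, 26791 bases apart, with 0 annotated genes between them. Adamts18 lies on chromosome 8 (113697126 to 113848738, minus strand) and Rspo3 on chromosome 10 (29452416 to 29535867, minus strand). The bases before each RefSeq start that lie outside annotated exons are given 5′ to 3′ (build GRCm38.p6), with capitals for the TCF/LEF core CTTTGAA or CTTTGAT on either strand. Positions are chr1:87183064-87183312 on the plus strand for Prss56, chr1:87156522-87156606 on the minus strand for Ecel1, and chr8:113848840-113849089 on the minus strand for Adamts18. Sp5, a transcription factor induced by Wnt, is added for comparison (chr2:70474673-70474922, plus strand).
Prss56: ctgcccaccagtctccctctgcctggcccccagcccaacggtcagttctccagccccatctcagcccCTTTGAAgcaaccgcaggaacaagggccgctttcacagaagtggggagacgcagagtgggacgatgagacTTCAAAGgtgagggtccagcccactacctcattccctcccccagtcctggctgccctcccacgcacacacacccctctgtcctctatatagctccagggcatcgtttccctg
Ecel1: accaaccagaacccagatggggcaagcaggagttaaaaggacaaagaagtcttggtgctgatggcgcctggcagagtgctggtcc
Adamts18: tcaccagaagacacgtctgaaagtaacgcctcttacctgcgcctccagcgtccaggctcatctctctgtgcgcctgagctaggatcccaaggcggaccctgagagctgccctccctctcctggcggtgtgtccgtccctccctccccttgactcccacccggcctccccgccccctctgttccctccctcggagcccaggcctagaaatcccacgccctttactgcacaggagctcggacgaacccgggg
Sp5: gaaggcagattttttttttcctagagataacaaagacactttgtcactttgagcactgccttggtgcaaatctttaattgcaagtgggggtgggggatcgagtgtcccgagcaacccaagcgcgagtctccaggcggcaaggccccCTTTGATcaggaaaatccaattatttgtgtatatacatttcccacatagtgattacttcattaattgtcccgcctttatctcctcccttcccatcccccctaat
The 250 bases before the Prss56 start held 2 such cores, which begin 183 and 113 bases before the start, 1 on each strand. Over all 32851 windows of the RefSeq table, 7.48% held at least 1 core and 0.42% held at least 2. The Sp5 window held 1 core, and the Adamts18, Ecel1, S100a6 and Nkd1 windows held 0. A match is a description of the letters and not a measured binding site. The core was picked with the Wnt gene results known, and no other motif was searched.

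In library 1 the 113 members made up 14.7% of the 770 cells over the astrocyte threshold (exact Clopper-Pearson 95% interval 12.3 to 17.4%). In library 2 the 72 members made up 12.7% of 567 (10.1 to 15.7%), so the intervals overlap. Members carried a median of 4626 UMIs in library 1 and 4148 in library 2, against 3407 and 3324.5 in reference cells. The 5 astrocyte genes stood at a median of 76.9 and 79.5 per 10000 in members and at 139 and 117 in reference cells. Members were therefore deeper and lower in the astrocyte genes than the cells they are compared with, and results that move with this are given beside a comparison in which both sides lie at 40 to 100 per 10000. That comparison leaves 78 and 50 members and 126 and 156 reference cells, with medians of 64.4 and 64.9 against 77.6 and 68.4 per 10000.

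Cells lay on both sides of each limit. There were 6 and 4 members at 40 to 44 per 10000 and 6 and 6 cells with at least 2 UMIs of the 4 genes at 36 to 40. Exactly 2 UMIs of the 4 genes were found in 26 and 20 members, and just outside the rule stood 91 and 68 cells with 1 UMI. Another 21 and 13 cells had at least 2 UMIs of the 4 genes but over 1 UMI of Gfap and Thbs4. Below the astrocyte threshold, 3.36% of 1070 cells and 5.90% of 1508 cells had at least 2 UMIs of the 4 genes. The libraries shared 4 barcode sequences.

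One member of library 1 stood apart. It held 56406 UMIs, against 10565 in the next deepest member, and 9.73% of all UMIs of the library 1 members. It carried 2 UMIs of the 4 genes, 42.9 per 10000 of the astrocyte genes, and was marked as a doublet by Scrublet, which marked 2 and 1 of the members. Library 1 values that rest on this cell are given with and without it.

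Prss56 dominated the choice of cells. It supplied 768 of the UMIs of the 4 genes in library 1 (74.3%) and 355 in library 2 (78.7%), in 100 of 113 and 63 of 72 members. Its level was 1324 CPM, counts scaled to a common total of 1000000 in library 1 and 1122 in library 2. Ecel1 stood at 257 and 108 CPM and was seen in 63 and 23 members. Adamts18 stood at 84.5 and 180 CPM and was seen in 33 and 34 members. These levels were fixed by the rule and are a description.

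Rspo3 differed from the other 3 genes. It was read in 39 of 113 members of library 1 (68 UMIs, 117 CPM), but in 1 of 72 members of library 2, where that single cell held all 5 UMIs (15.8 CPM). Over all cells above the astrocyte threshold, thinned to 2000 UMIs each (131 and 66 cells of the matrix were shallower and left out), a Rspo3 UMI was found in 4.55% of 703 cells of library 1 (3.13 to 6.37%) and in 0.547% of 548 cells of library 2 (0.113 to 1.59%). The working name of these cells lists Rspo3 first, which the library 2 cells do not bear out. They are called Prss56-led cells here.

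UMIs of these genes were also found outside the astrocyte range. Free RNA was not measured, and its part in these counts was not tested. Below the astrocyte threshold, Prss56 was seen in 7.76% of 1070 cells and 10.4% of 1508 cells (medians of 6718 and 7374.5 UMIs). In the neuroblast range (summed neuroblast genes at least 40 and astrocyte genes at most 10 per 10000, 227 and 280 cells, medians of 3187 and 3451 UMIs), Prss56 was seen in 1.76% and 2.5% of cells, Ecel1 in 1.76% and 0.357%, and Rspo3 in 0.441% and 0%. The plot of levels by range of cells sets the neuroblast range beside the members.

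**Figure D1:**
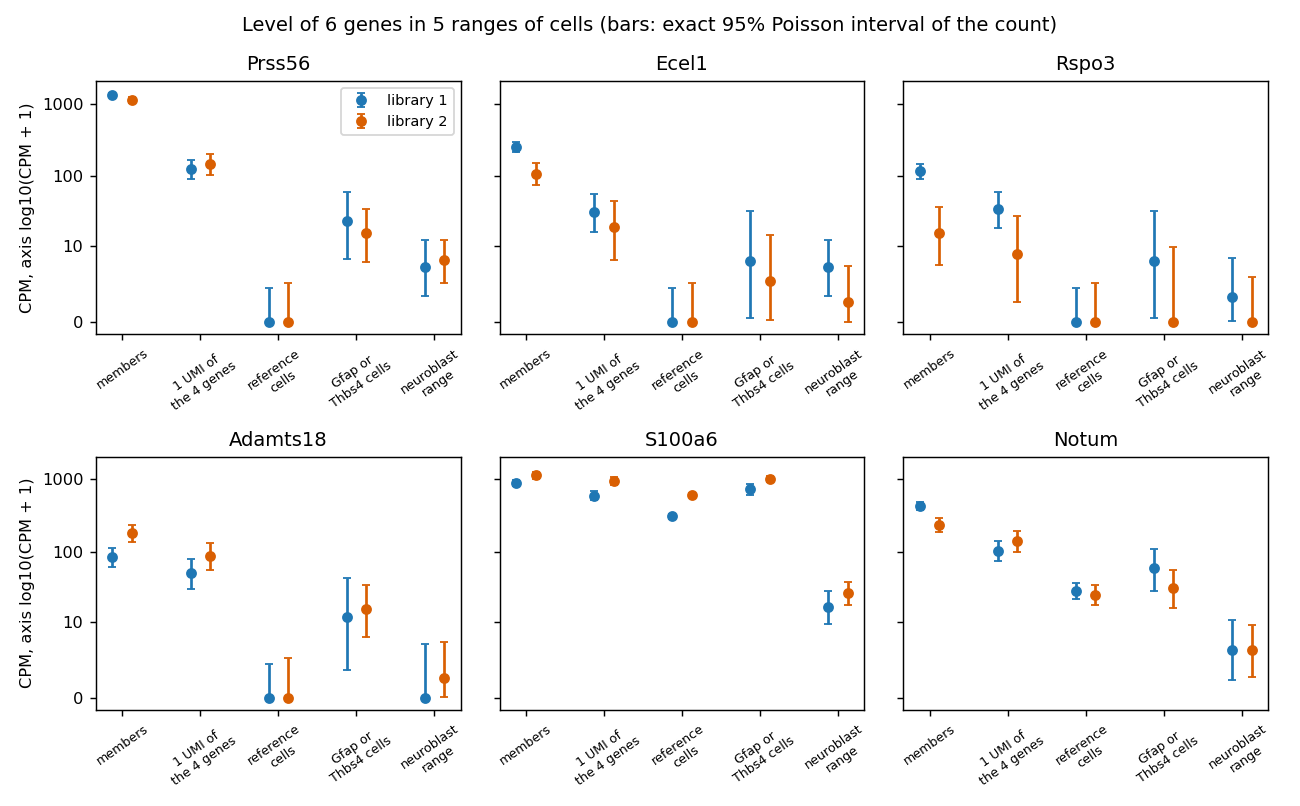
Level of 6 genes (CPM, axis log10 of CPM plus 1) in members, cells with 1 UMI of the 4 genes, reference cells, Gfap or Thbs4 cells and the neuroblast range, with points for library 1 and library 2 and bars for the exact 95% Poisson interval. Prss56 stood at 1324 and 1122 CPM in members and the reference cells are at 0 for the 4 genes by rule, while Notum, which the rule did not use, stood at 429 and 237 CPM in members and at 28.7 and 25.04 in reference cells.

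Each of Prss56, Ecel1 and Adamts18 stood higher in cells that carried the others. To read each gene in cells chosen without it, cells over the astrocyte threshold were chosen by at least 2 UMIs of the other 3 genes and at most 1 UMI of Gfap and Thbs4, and compared with cells at 0 UMIs of those 3. Prss56 then stood at 1692 CPM (1546 to 1848) against 99.3 (86.7 to 113) in library 1 and at 1012 (837 to 1213) against 112 (96.5 to 128) in library 2, which is 17.05-fold and 9.07-fold higher. Ecel1 was 20.4-fold and 20.8-fold higher. Adamts18 was 5.85-fold and 4.66-fold higher. Rspo3 was 12.4-fold higher in library 1, from 57 UMIs against 17, while library 2 had only 5 UMIs against 2.

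Prss56 and Ecel1 were also read together when every cell had the same depth. Among cells thinned to 2000 UMIs, Prss56 was found in 62.3% of 53 Ecel1 cells of library 1 (47.9 to 75.2%) and in 12% of 650 cells without Ecel1 (9.6 to 14.7%). In library 2 the shares were 61.1% of 18 (35.7 to 82.7%) and 14.5% of 530 (11.6 to 17.8%). Adamts18 and Rspo3 were rarely read in 1 cell. In library 1, Rspo3 was found in 6.67% of 30 Adamts18 cells (0.818 to 22.1%) and in 4.46% of 673 others (3.03 to 6.30%), a difference within the counting error. Before thinning the same shares were 15.8% of 57 and 6.73% of 713. Within the members, 28 and 33 carried 1 of the 4 genes, 54 and 30 carried 2, 25 and 8 carried 3, and 6 and 1 carried all 4. Prss56 without the other 3 was found in 23 members of library 1 and 27 of library 2.

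Notum ranked highest among the counted genes outside the rule by its ratio of members to reference cells. It was fixed here as a marker of Gfap or Thbs4 cells. It lies on chromosome 11 (120653788 to 120661175, minus strand) and encodes a secreted carboxylesterase that removes the lipid from Wnt proteins and so inactivates them. In library 1 it stood at 429 CPM in members (378 to 486) and 28.7 in reference cells (21.6 to 37.3). In library 2 it stood at 237 CPM (187 to 297) and 25.04 (17.6 to 34.5). The ratios were 14.97 and 9.47, and the Poisson intervals are far apart in both libraries. A Notum UMI was found in 67.3% and 44.4% of members and in 7.34% and 6.04% of reference cells, and the member with the most Notum UMIs held 4.82% and 8% of them. Within 40 to 100 per 10000 of the astrocyte genes the ratios were smaller, at 7.12 and 6.73.

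The Notum level followed the number of UMIs of the 4 genes per cell. Among cells over the astrocyte threshold with at most 1 UMI of Gfap and Thbs4, Notum stood at 28.1 CPM in library 1 cells with 0 UMIs of the 4 genes, at 99.5 with 1, at 141 with 2, at 366 with 3 to 5, at 462 with 6 to 10 and at 750 with 11 or more. In library 2 the values were 25.1, 160, 143, 118, 329 and 498 CPM. The rise was ordered in library 1, and in library 2 the 3 middle groups lay within each other's intervals.

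**Figure D2:**
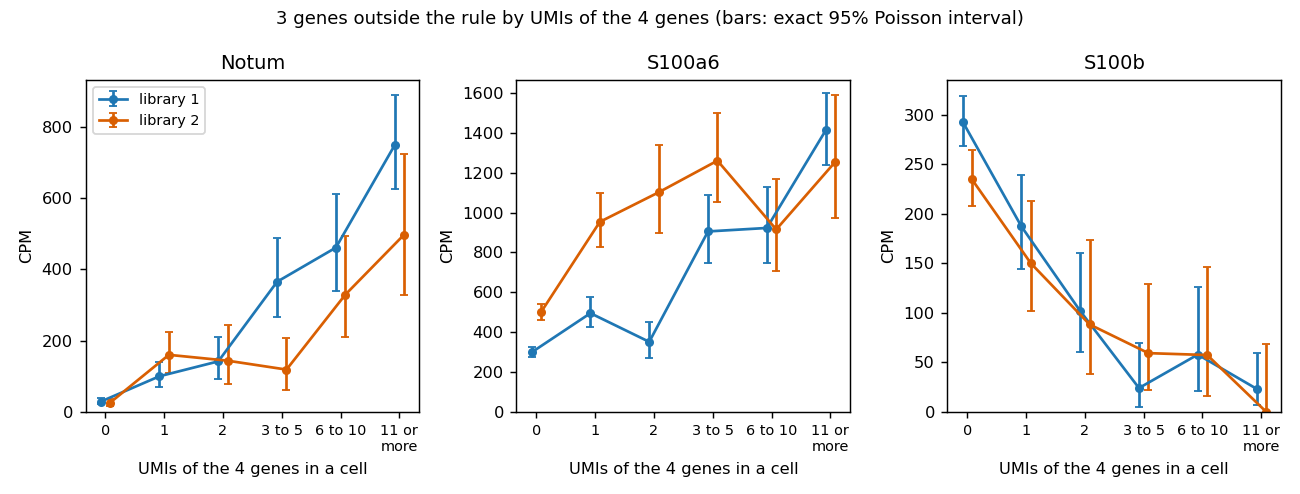
CPM of Notum, S100a6 and S100b, which the rule did not use, in cells over the astrocyte threshold grouped by their UMIs of the 4 genes, with points for library 1 and library 2 and bars for the exact 95% Poisson interval. Notum rose from 28.1 to 750 CPM in library 1 and from 25.1 to 498 in library 2, and S100b fell from 293 to 23.1 CPM in library 1 and from 235 CPM to 0 in library 2.

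Across genes, UMIs were summed over the cells of a library, scaled to CPM and compared where at least 10 UMIs were expected in the members of each library. Of 4603 genes counted, without the 11 genes of the rule, 129 were at least 1.5-fold higher in both libraries (2.8%) and 154 at least 1.5-fold lower (3.35%). With 1 library per age and members chosen from the same counts there is no test, and these are descriptions. The median log2 ratio over the counted genes was 0.098 in library 1 and 0.054 in library 2. Within 40 to 100 per 10000, 68 of 3576 genes were higher and 66 lower, of which 34 and 37 were also called with all cells. With reference cells also held to at most 1 UMI of Gfap and Thbs4, 188 of 4610 genes were higher and 194 lower.

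**Figure D3:**
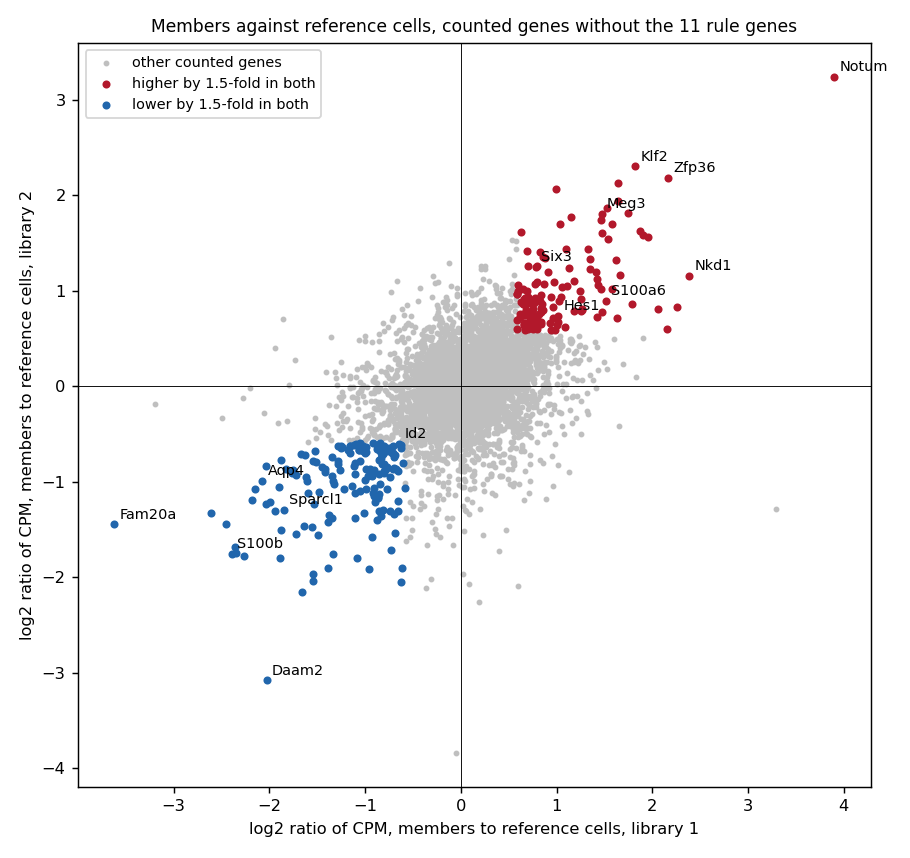
Log2 ratio of CPM between members and reference cells for each of the 4603 counted genes, library 1 on the horizontal axis and library 2 on the vertical axis, with the 129 genes higher and the 154 genes lower by 1.5-fold in both libraries in colour. Notum lies apart at 3.90 and 3.24, and S100b lies among the lowest at -2.39 and -1.76.

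Genes of a list of Wnt feedback targets and antagonists, Notum among them, were also compared and are called the Wnt feedback and antagonist list here. The list mixes feedback targets with secreted antagonists and with Tcf and Tle genes. Its counts are therefore not a measure of the response of Wnt targets. Of the 23 genes of that list, 7 were counted, 3 were higher (Notum, Nkd1 and Sfrp1) and 0 lower, with medians of 0.67 and 0.73. Nkd1, a cytoplasmic inhibitor that binds Dishevelled, stood at 122 CPM against 23.5 in library 1 and at 66.4 against 29.8 in library 2, 5.22-fold and 2.23-fold higher. Sfrp1, a secreted Frizzled-related antagonist, stood at 129 against 70.9 CPM and at 329 against 156, 1.82-fold and 2.10-fold higher. The other 4 counted genes were Dkk3 (ratios 1.26 and 1.65), Tle1 (1.59 and 1.19), Tle4 (1.06 and 1.10) and Tcf7l2 (0.69 and 0.76).

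Of 9 genes of the Wnt feedback and antagonist list counted within 40 to 100 per 10000, 5 were higher, with medians of 0.85 and 0.59. Those 9 included Axin2 and Sp5, which were not counted among all cells, so the medians cover different genes. Besides Notum these were Axin2, a scaffold of the beta-catenin destruction complex (84.7 against 43.2 CPM and 85.8 against 37.1), Sp5 (98.4 against 23.6 and 126 against 28.7), Dkk3 (382 against 226 and 379 against 203) and Sfrp1. Nkd1 was 2.81-fold higher in library 1 and 1.47-fold in library 2 and missed the fold in that comparison, and Notum fell to the ratios given above.

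Genes of the list of R-spondins, Wnt ligand secretion and receptors were mostly too low to be counted. Of 33 such genes 6 were counted, 0 were higher and 1 was lower. That gene was Lgr4, an R-spondin receptor, at 31.0 CPM against 48.0 and at 37.9 against 59.6, 1.55-fold and 1.57-fold lower. Without the deepest member the library 1 ratio was 0.68, short of the fold, and within 40 to 100 per 10000 it was 1.17 there and 0.59 in library 2. Lgr5, Lgr6 and Rnf43 were below the counting limit.

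S100a6 is a small calcium-binding protein known as a marker of adult neural stem cells, and was listed as a marker of these cells without being part of the rule. It stood at 891 CPM in members and 312 in reference cells of library 1 (2.86-fold) and at 1138 and 612 CPM in library 2 (1.86-fold). A UMI was found in 96 of 113 and 65 of 72 members. Gfap or Thbs4 cells stood close to the members, at 728 and 1010 CPM. Adamts18 and S100a6 were read together in library 1, where 90.0% of 30 thinned Adamts18 cells had a S100a6 UMI (73.5 to 97.9%) against 45.3% of 673 others. In library 2 the shares were 75% of 44 (59.7 to 86.8%) and 57.9% of 504.

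Other S100 genes moved in both directions. S100a4, a neighbour of S100a6 on chromosome 3, stood at 126 CPM against 45.4 and at 117 against 38.6, 2.77-fold and 3.03-fold higher. S100b, the S100 protein of mature astrocytes, stood at 53.4 CPM against 281 and at 56.9 against 192, 5.26-fold and 3.38-fold lower. Of the 10 counted genes of the S100 and annexin list, S100a4 was the 1 higher and S100b the 1 lower.

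Astrocyte genes outside the rule were lower in Prss56-led cells than in reference cells. Of 32 counted genes of parenchymal astrocytes, 11 were lower and 0 higher, with medians of -0.76 and -0.44, and 29 lay below 0 in both libraries. Aqp4, the water channel of astrocyte endfeet, stood at 79.3 CPM against 335 and at 123 against 245. Gjb6, the gap junction protein connexin 30, stood at 87.9 against 266 and at 108 against 233. Pla2g7, a secreted phospholipase, stood at 162 against 603 and at 297 against 620, and Agt, the angiotensin precursor, at 17.2 against 88.6 and at 15.8 against 50.8. The list is related to the rule's astrocyte score, which was also lower in members. Within 40 to 100 per 10000 the medians were -0.69 and -0.26 and 6 of 26 counted genes were lower.

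The 15 lowest genes by rank included Daam2, a formin that works in Wnt signalling, with 8 UMIs and 2 UMIs in members (13.8 CPM against 56.3 and 6.32 against 53.5). Limch1, Clmn, Grin2c, Gabbr2, Irak2, Vegfa, Gpr162, Mir124-2hg, Caskin1, Timp4, Fam20a and Hbegf were 2.73-fold to 12.3-fold lower over both libraries. Fam20a rested on 3 and 8 UMIs. Sparcl1, a matrix protein of astrocytes, stood at 486 CPM against 1754 and at 588 against 1444, and Clu, a secreted chaperone, at 2090 against 4327 and at 2915 against 5012. Gabbr2 had 6 of its 9 library 1 UMIs in the deepest member, without which it was 0.11 of the reference level. At 40 to 100 per 10000, Hbegf in library 2 (ratio 0.89), Vegfa in library 1 (0.68) and Gpr162 in library 2 (0.76) came within the fold.

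Immediate early genes, which cells switch on within minutes of many stimuli, were the list with the most genes higher than in reference cells. Of 23 counted, 17 were higher and 0 lower, with medians of 1.18 and 1.34. Zfp36, which destabilises messenger RNA, stood at 255 CPM against 56.8 and at 228 against 50.1. Klf2 stood at 302 against 85.5 and at 405 against 81.9, Fosb at 269 against 80.3 and at 218 against 62.3, and Klf4 at 172 against 55.3 and at 133 against 34.5. Arc, Junb, Btg2, Socs3 and Maff were also among the 15 highest genes by rank, between 2.88-fold and 4.38-fold higher.

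The immediate early result moved with the astrocyte gene level and lay in part of the cells. Within 40 to 100 per 10000, 4 of 24 counted genes were higher (Junb, Klf2, Zfp36 and Socs3) and the medians were 0.12 and 0.69. Fosb, Klf4, Btg2 and Maff then fell short in library 1, with ratios of 1.31, 1.36, 1.24 and 1.24. In cells of 3000 to 6000 UMIs it was 16 of 22. The summed list stood at a median of 41.7 per 10000 in library 1 members against 21.7 in reference cells, and at 23.5 against 21.1 in library 2. Single members reached 1110 and 815 per 10000, and single reference cells 1308 and 837. Klf2 was read in 28.3% and 20.8% of members, against 9.17% and 10.1% of reference cells.

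**Figure D4:**
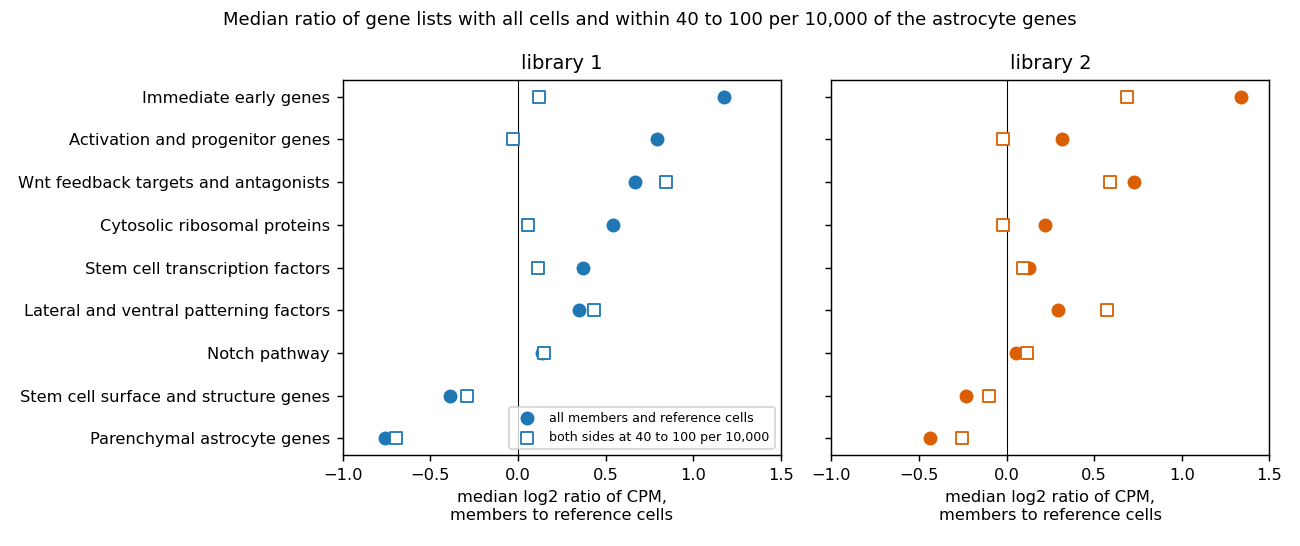
Median log2 ratio of CPM between members and reference cells over the counted genes of 9 lists, library 1 on the left and library 2 on the right, filled circles for all cells and open squares for cells at 40 to 100 per 10000 of the astrocyte genes on both sides. Immediate early genes moved from 1.18 to 0.12 and from 1.34 to 0.69 and ribosomal proteins to near 0. The Wnt feedback and antagonist list stood at 0.67 and 0.73 over 7 genes and at 0.85 and 0.59 over 9.

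Genes of activation and of protein synthesis showed the same dependence. Of 17 counted activation and progenitor genes, 2 were higher, Btg2 and Gadd45g, with medians of 0.79 and 0.32. Without the deepest member the library 1 median was 0.34, and within 40 to 100 per 10000 the medians were -0.027 and -0.019. The ratios there were 0.998 and 1.27 for Gadd45g and 1.24 and 2.02 for Btg2, so neither passed in both libraries. Egfr, the receptor used to mark activated stem cells, stood at 143 CPM against 84.0 in library 1 and at 75.9 against 57.5 in library 2. Of 57 ribosomal protein genes 0 passed the fold, 56 lay above 0 in both libraries, and the medians of 0.54 and 0.22 moved to 0.055 and -0.022 within 40 to 100 per 10000.

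Mki67, a marker of dividing cells, was read in 7 of 113 members (15 UMIs) and in 6 of 72 (8 UMIs), at 25.9 and 25.3 CPM against 13.6 and 20.3 in reference cells. The deepest member held 9 of the 15 library 1 UMIs, and without it Mki67 stood at 11.5 CPM, below the reference level. The summed genes of G2 and M phase stood at 1297 CPM against 1123 in library 1 (1113 without the deepest member) and at 1477 against 1530 in library 2, and all but 2 and 1 members had a UMI of the list. Those of S phase stood at 981 CPM against 812 in library 1, at 686 without the deepest member, and at 936 against 894 in library 2. None of the 9 counted S phase genes and 0 of the 10 G2 and M phase genes passed the fold in either direction. Without the deepest member 2 of the 10 were lower, Birc5 (ratios 0.52 and 0.55) and Cenpa (0.57 and 0.59), both of which act at chromosomes in mitosis.

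Regional transcription factors were described for the side of the ventricle they are known to mark. Of 8 counted genes of lateral and ventral identity, 2 were higher. Six3 stood at 109 CPM against 63.1 and at 88.5 against 37.2, and Nkx6-2 at 126 against 73.5 and at 174 against 82.6. Pax6, known from the dorsal wall, stood at 79.3 against 133 and at 117 against 226, 1.68-fold and 1.93-fold lower. It was the 1 lower of 3 counted dorsal genes. The other 2 lay above 0 in both libraries, and the list's medians were 0.12 and 0.25. With cells thinned to 2000 UMIs before the rule, the log2 ratios of Pax6 were 0.41 and -0.95. Within 40 to 100 per 10000, Nkx6-2 and Pax6 kept their direction in both libraries, with ratios of 2.28 and 2.38 and of 0.41 and 0.43. Six3 there had ratios of 1.35 and 2.81. Crym, also of the lateral and ventral list, passed the fold there, with ratios of 2.02 and 3.50. Dlx1, Dlx2, Ptch1 and Meis2 of that list did not.

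Single genes of other pathways also passed the fold. Hes1, the Notch effector that holds stem cells in an undifferentiated state, stood at 585 CPM against 288 and at 446 against 267, and was the 1 of 9 counted Notch genes to pass. Id2, a BMP-induced inhibitor of basic helix-loop-helix factors, stood at 697 against 1087 and at 594 against 903. Without the deepest member its library 1 ratio was 0.68, short of the fold. Bmpr2, a BMP receptor, passed at 1.59 and 1.505 and did not pass without the deepest member, at 1.32 in library 1. Meg3, a long noncoding RNA of neurons that was also fixed as a neuron marker, stood at 517 CPM against 187 and at 895 against 256, in 76 of 113 and 54 of 72 members. Map1b, a microtubule protein, Shisa2, which retains Wnt and FGF receptors inside the cell, and Pdgfa, a growth factor, were 2.77-fold to 3.73-fold higher.

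Metabolic lists held few genes past the fold. Acsbg1, an acyl-CoA synthetase, was the 1 lower gene of 22 counted for fatty acid oxidation, at 297 CPM against 591 and at 243 against 378. Fads2, a fatty acid desaturase, was the 1 lower gene of 25 for lipid synthesis, with 7 and 8 UMIs in members. The glycolysis genes Pfkm and Eno1 were lower, Eno1 at 360 CPM against 802 and at 313 against 510, and the list's medians were -0.46 and 0.013. Htra1 and Timp4, a protease and a protease inhibitor, were the 2 lower genes of 8 counted in that list. Of 15 matrix and adhesion genes counted, 0 passed the fold. Within the 40 to 100 range of the astrocyte genes, not all of these genes stayed past the fold. Acsbg1 had ratios of 0.57 and 0.88, Eno1 of 0.49 and 0.73, Pfkm of 0.55 and 0.71, and Htra1 of 0.59 and 0.90. Each of them fell short in library 2. Fads2 (0.090 and 0.35) and Timp4 (0.35 and 0.43) stayed past it in both libraries.

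Some defining genes of other cell types were at 0 and others were not. Ptprc and Cx3cr1 of microglia were at 0 in members of both libraries. Of the 8 choroid plexus genes 5 were at 0 in members of library 1 and 6 in those of library 2. The choroid plexus factor Otx2 stood at 22.4 CPM against 6.78 and at 19.0 against 6.09, from 13 and 6 UMIs in members, and Ttr had 2 UMIs in members of each library and 0 in reference cells. The summed choroid plexus list was 3.78-fold and 4.15-fold above reference cells, at 27.6 and 25.3 CPM. The summed microglia markers ranged from 0 to 6.09 and from 0 to 6.17 per 10000 in single members, and endothelial markers from 0 to 2.63 and from 0 to 3.34. Of the 9 neuron markers 3 were at 0 in members (Syt1, Slc17a7 and Nefl) and Meg3 alone reached the counting limit, and the list's range over members was 0 to 62.0 and 0 to 46.7 per 10000. Of genes of tanycytes, the related cells of the third ventricle, 5 of 10 were at 0 in members of library 1 and 7 in those of library 2, and Rax had 4 and 0 UMIs. Crym, a thyroid hormone-binding protein, was read in 99 of 113 and 57 of 72 members, at 1816 CPM against 1511 and at 1540 against 853. Dio2, a deiodinase, stood at 74.1 against 39.1 and at 56.9 against 40.6. These were the 2 counted genes of the list; neither passed the fold in both libraries against reference cells, and both did against Gfap or Thbs4 cells. The part of these cell types in the results was not tested. Foxj1 of ependymal cells had 8 and 5 UMIs in members, and 7 of the 10 ependymal genes were seen in library 1 and 8 in library 2.

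Oligodendrocyte genes were the exception in library 1. All 10 markers were seen there, summing to 766 CPM in members and 561 in reference cells, while library 2 stood at 225 and 247. The deepest cell held 186 of the 444 UMIs of these markers in library 1 members, and without it they summed to 493 CPM.

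Gfap or Thbs4 cells, which passed the same astrocyte threshold with at least 2 UMIs of Gfap and Thbs4 and at most 1 UMI of the 4 genes, are the other range of astrocyte-like cells compared (39 and 94 cells). Those with 0 UMIs of the 4 genes are also reference cells, so both comparisons share cells. Of 4621 genes counted, 167 were at least 1.5-fold higher in Prss56-led cells in both libraries (3.61%) and 79 lower (1.71%). Notum again led, at 429 CPM against 59.7 and at 237 against 31.8, 7.20-fold and 7.46-fold higher. Sp5 followed at 86.2 against 17.9 and at 88.5 against 13.2, and Fzd5, a Wnt receptor, at 63.8 against 17.9 and at 63.2 against 18.5. Of 9 counted genes of the Wnt feedback and antagonist list 5 were higher and 0 lower, with medians of 0.72 and 0.70. The other genes among the 10 highest were Smarcad1, Ddx21, Chchd4, Cln3, Zfp36, Lima1 and Map1b, between 2.54-fold and 4.19-fold higher. Library 1 counts were small on the Gfap or Thbs4 side, with 3 UMIs each for Sp5 and Fzd5. Of 31 counted parenchymal astrocyte genes 2 were lower and 1 higher in Prss56-led cells, with medians of -0.42 and -0.099. Of 23 counted immediate early genes 4 were higher and 0 lower, with medians of 0.40 and 1.27.

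Some calcium-binding genes were lower in Prss56-led than in Gfap or Thbs4 cells. S100a11 stood at 19.0 CPM against 83.5 and at 19.0 against 101, S100a10 at 20.7 against 119 and at 60.1 against 159, and Anxa2 at 19.0 against 59.7 and at 28.5 against 71.5. These were the 3 of 12 counted S100 and annexin genes that passed the fold, all lower, with list medians of -0.15 and -0.29, whereas S100a6 did not pass it. Rlbp1, a retinoid-binding protein of Müller glia, stood at 36.2 against 101 and at 63.2 against 217. Slc6a6, the taurine transporter, Limch1, Kcnip3, Pla2g7 and Fads2 were also among the 10 lowest.

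Members differed among themselves by which of the 4 genes they carried. The 90 and 45 members with Rspo3, Adamts18 or Ecel1 stood at 1016 and 1382 CPM of S100a6, against 305 and 748 in the 23 and 27 members with Prss56 without the other 3. S100b stood at 31.4 and 15.4 CPM in the former and at 158 and 123 in the latter. Notum stood at 464 and 349 CPM against 266 and 57.5. The summed parenchymal astrocyte genes moved the same way as S100b, at 54284 and 52000 CPM against 73570 and 71926. The members with Prss56 as their only gene of the 4 thus lay nearer to the reference cells in these values, which stood at 28.7 and 25.04 CPM for Notum. In library 2 the Notum level of those 27 cells rested on 7 UMIs (interval 23.1 to 119). Another 21 and 13 cells met the rule but for the Gfap and Thbs4 limit. Their Notum stood at 214 and 324 CPM, against 429 and 237 in members. Their S100a6 stood at 1226 and 1742 CPM, against 891 and 1138 in members. Their S100b stood at 9.29 and 15.4 CPM, from 1 UMI in each library, against 53.4 and 56.9 in members.

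In genes outside the rule, members lay near other members more in library 1 than in library 2. Among the 15 nearest cells of a member (20 principal components without the rule genes, cells thinned to 2000 UMIs), 35.9% were members in library 1, where members made up 15.6% of the cells and 9.71% of the neighbours of reference cells. In library 2 the values were 17.4%, 13.2% and 9.84%. In library 1, 29 of 108 members had members as most of their neighbours, and in library 2 it was 0 of 70.

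Between libraries the members are compared without a test, as each age was 1 pool. Of 4888 genes counted, 623 were at least 1.5-fold higher in library 1 members (12.7%) and 334 in library 2 members (6.83%). Of these, 76 and 46 were among the genes that passed the fold in the same direction in reference cells too. The share of all 4888 genes that passed it in reference cells is not given. The overlap therefore does not show how far these differences were particular to members. Npl, a sialic acid lyase, stood at 69.0 CPM in library 1 and 3.16 in library 2, with 10.95 and 6.09 in reference cells. Rgs16, a regulator of G protein signalling, stood at 94.8 and 15.8, and Mycl, a Myc family factor, at 51.7 and 6.32. Cdkn1a, the cell cycle inhibitor p21, stood at 63.8 and 6.32, with 31.8 and 6.09 in reference cells, and Olig1 at 93.1 and 12.6. A single library 1 member, not the deepest, held 26 of the 54 Olig1 UMIs there, and without it Olig1 stood at 49.2 CPM. The library 2 values of members rested on few UMIs: 1 for Npl, 2 each for Mycl and Cdkn1a, 4 for Olig1 and 5 for Rgs16.

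The deepest member shaped some of these values. Hist1h2ap had 57 of its 65 library 1 UMIs in that cell, and its ratio of 7.09 was 0.97 without it. Nsg2, Cdkn1a, Dpysl3, Mbp and Cldn11 were 15.3-fold, 10.1-fold, 6.54-fold, 9.82-fold and at least 5.45-fold higher in library 1 with it, and 9.06-fold, 6.64-fold, 3.93-fold, 7.55-fold and at least 3.02-fold higher without it. Cldn11 was at 0 in library 2 and is set against 3 counts there. Library 2 members held 1 UMI of Nsg2 and 4 each of Dpysl3 and Mbp.

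Higher in library 2 was Riiad1, fixed here as a marker of Gfap or Thbs4 cells, at 53.4 CPM in library 1 members and 266 in library 2 members, with 72.0 and 131 in reference cells. Myl9, a myosin light chain, stood at 20.7 and 85.4, with 20.9 and 62.9 in reference cells. Kcnk2, a potassium channel, stood at 34.5 and 117, and S100a10 at 20.7 and 60.1. B3galt1, 1110012L19Rik, Pank2, Paqr6, Dok5 and Rhcg were 2.90-fold to 3.17-fold higher in library 2 members and between 0.93-fold and 1.24-fold in reference cells. Of the lists, activation and progenitor genes had 9 of 18 counted genes higher in library 1 members and 0 in library 2 members, with a median log2 difference of 0.50 in members and 0.016 in reference cells. Without the deepest member 4 of 17 were higher in library 1 and the median was 0.10. Immediate early genes had 9 of 27 higher in library 1 and 1 in library 2, with medians of 0.30 in members and 0.41 in reference cells.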

How the data were processed

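Male C57BL/6 mice of 2 and 22 months gave 1 droplet library per age, from 4 and 8 pooled mice, with 8000 sort events each per the labels' protocols. The deposited matrix held raw UMI counts per gene and barcode for 27998 genes and 3937 barcodes. Cell Ranger 2.0.0 and the builds GRCm38.p3 and mm10 are named in the submitters' processing notes. How barcodes were called and how the libraries were joined is not given in the sources used here.

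Cells with over 10% mitochondrial UMIs (9 and 13) were removed. UMI counts were summed per library over the cells of a range and scaled to CPM, with exact 95% Poisson intervals. Shares have exact 95% Clopper-Pearson intervals. Both cover counting error only. Kept barcodes held 1440 to 56406 UMIs in library 1 (10424554 in all) and 1510 to 24313 in library 2 (13298089). A count of 0 was set to 3 counts, which makes a ratio a bound. Genes with at least 10 expected UMIs in the members of each library were counted, and 1.5-fold in the same direction in both libraries was the call. Doublets were marked by Scrublet in scanpy 1.11.5 at an expected rate of 1.5% and kept, with a comparison without them. Other tools were Python 3.11.15, numpy 2.4.6, scipy 1.17.1, pandas 2.3.3 and matplotlib 3.10.9, with seed 1. The scripts were tested on simulated data.

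The members, the 24 pathway lists and 16 marker lists were chosen with earlier results of these data known. Genes named were the 15 highest and 15 lowest by the less extreme of both libraries' ratios, S100a6, up to 4 genes a list past the fold, marker genes of other cell types, and the 10 highest and 10 lowest against Gfap or Thbs4 cells and between libraries. Other genes are named where a list is given in full or a count is small, after their values were seen. Promoter sequences are from RefSeq, matched by symbol. Rspo3, Notum and Sfrp1 were not matched. A few named or listed genes are not reported here.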

Additional observations from a re-analysis of the deposited data

Results flagged for a closer look

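Of 26 gene lists with at least 3 counted genes, 8 had medians on opposite sides of 0 in the 2 libraries when members were set against reference cells, and the differences between libraries were not tested. Against Gfap or Thbs4 cells 16 of 26 did. Lists with fewer counted genes are left out. S phase genes had a median log2 ratio of 0.22 in library 1 and -0.12 in library 2. G2 and M phase genes stood at 0.21 and -0.16. The genes of the mitochondrial genome stood at 0.11 and -0.33. The S phase value of library 1 rested on the deepest member, without which it was -0.14. Markers of activated stem cells and progenitors stood at 0.77 and -0.11, and glycolysis genes at -0.46 and 0.013. In the other 3 lists 1 of the medians lay close to 0: S100 and annexin genes stood at 0.0046 and -0.10, MHC class I and antigen presentation genes at -0.013 and 0.19, and fatty acid oxidation genes at -0.098 and 0.032.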

How the results depend on the processing

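Of the values of named genes under alternatives, 748 of 832 kept their direction and side of the limit. The limit was 1.5-fold, or 2-fold in the 2-fold setting. Of the rest, 71 kept the direction in both libraries and fell short, and 13 fell short with the libraries on opposite sides of 0. These 13 came from 5 genes, among them Lgr4, Bmpr2, Gadd45g and Pax6. None turned in both libraries. The settings of at least 30 expected UMIs and of no filter leave a gene's ratio as it was. All 52 genes therefore kept theirs in each, which tests nothing. At 2-fold the ratios were also unchanged, and 16 of 52 genes fell short of that limit. Of list medians, 597 of 654 moved little, 47 moved and 10 turned. The share of members in library 1 was 11.9% at an astrocyte threshold of 60 per 10000, 11.3% with at least 3 UMIs of the 4 genes, 17.4% with no limit on Gfap and Thbs4 and 10.95% after thinning to 2000 UMIs. In library 2 it was 9.17% with at least 3 UMIs. Genes higher and lower than in reference cells numbered 68 and 95 after thinning, 38 and 59 with at least 30 expected UMIs, 837 and 488 with no filter on low counts, 33 and 40 at 2-fold, and 68 and 66 within 40 to 100 per 10000. At a threshold of 60 per 10000, 68 were higher. Fewer genes were tested after thinning (1908), at 30 expected UMIs (1672), at 60 per 10000 (3112) and within 40 to 100 (3576), and more with no filter (11333).

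The S phase median of library 1 turned to -0.12 at 60 per 10000, -0.12 with at least 3 UMIs, -0.10 without marked doublets, -0.12 in cells of 3000 to 6000 UMIs, -0.14 without the deepest member, -0.30 within 40 to 100 per 10000 and -0.063 as a mean of the cells' own shares. Within 40 to 100 per 10000 the activation genes turned to -0.027 and -0.019 and the ribosomal proteins of library 2 to -0.022, and the cause was not tested. The comparisons without the deepest member, within 40 to 100 per 10000, by the mean of the cells' shares and without members that had Prss56 as their only gene of the 4 were added after seeing the data. No paired analysis was possible because each age had 1 library and no label ties a library to an age. Depth limits the low genes: at 10 expected UMIs the Poisson interval alone spans over 1.5-fold.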
